A study of Mus musculus with 12 samples.

Results

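Papillary and Dlk1+ reticular fibroblasts, taken from the same skin of newborn mice, were compared across all genes on an Affymetrix expression array. The comparison used the 6 arrays whose label names either population, of 12 arrays in the series, with 3 arrays a side. Each side held 1 array from each of 3 female littermates, which were 2 days old. The 2 arrays with the same replicate number were taken as a pair from 1 animal. Strain and genotype are not given in the labels, and no treatment is named. Per the labels, the layer below the dermis was taken off, the rest was digested with collagenase, and fibroblasts were gated as positive for Pdgfra and CD34 and negative for CD45, CD117, CD31 and EpCam. Papillary cells were then CD26+ and lacked Dlk1 and Sca1 at the surface, and reticular cells were Dlk1+ and lacked CD26 and Sca1. RNA came from 4500 cells a sample and was amplified over 21 cycles. The other 6 arrays held the Dlk1+ Sca1+ and Dlk1− Sca1+ populations, both called pre-adipogenic in the labels, which entered the same model.

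The dermis has a papillary layer under the epidermis and a deeper reticular layer. Papillary fibroblasts are known for their contact with the epidermal basement membrane and for their part in hair follicle formation. Reticular fibroblasts are known as the source of the thick collagen bundles and elastic fibres of the lower dermis, and they border the cells that give rise to the fat layer of the skin. Dpp4, which encodes the surface peptidase CD26, and Dlk1, a membrane protein that restrains fat cell formation, are the surface markers by which the populations were split here.

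Levels below are log2 RMA values, given in the order of animals 1, 2 and 3. A difference is papillary minus reticular on the log2 scale with the standard error (SE) of the linear model fitted in limma with the animal as a block, and an adjusted p is that model's p-value after Benjamini-Hochberg over 17097 genes. Differences keep their sign, so a gene lower in papillary cells is given with a negative value. A gene is said to be higher or lower, or called, where the adjusted p was under 0.05. Each gene was read from its brightest probe set. All the 32 called genes marked "averaged" below had a difference over 1.5 times smaller, given after that word, with all their probe sets averaged, and kept their call. A mean under 5 is near the bottom of the scale, where RMA values understate folds, so the folds printed for Agtr2, Plat, Ptgs2 and Sod3 have an uncertain size. The same holds for the log2 difference of any gene with such a mean in 1 population. Among these are Gfra1, C1s1, Ms4a4d, Scn7a, Osmr, Pde4b, Elapor2 and Lancl3. All arrays measured sorted cells in bulk, so fewer cells of a type and less RNA per cell cannot be told apart. The array cannot show an absence, since background leaves every probe set with a value.

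Dlk1 and the 4 markers Dpp4, Grem1, Agtr2 and Gfra1 followed the labels, while wider marker lists and the other gated genes did so in part. Dpp4 read 10.97, 10.18 and 10.69 in papillary and 6.26, 6.53 and 6.10 in reticular arrays, and Grem1, a secreted antagonist of BMPs, read 11.25, 11 and 11.19 against 6.93, 6.43 and 6.73. On the reticular side Agtr2, a receptor of angiotensin II, read 4.73, 4.71 and 4.91 in papillary and 11.16, 11.36 and 11.08 in reticular arrays, and Gfra1, the GDNF co-receptor, read 4.76, 4.99 and 4.67 against 11.28, 11.31 and 10.85. None of these 4 markers overlapped between the groups. By size of the difference, Agtr2 and Gfra1 ranked 1 and 2 of 17097 genes on the reticular side. Grem1 and Dpp4 ranked 3 and 4 on the papillary side, and the cells were sorted on the protein of Dpp4. The separation of these markers is thus a description and not a check of the labels. Of 19 papillary markers, a list made with earlier results of these data known, 14 were higher, and the exceptions were the podoplanin gene Pdpn (-0.95 ± 0.09) and the repressor gene Prdm1 (-1.48 ± 0.21), which were lower, and Col23a1, Col6a5 and Lef1, which were not called. Of 15 reticular markers 12 were lower and 3 higher, namely Tgm2 (1.39 ± 0.11), Ppp1r14a (1.31 ± 0.12) and Thy1 (0.83 ± 0.06). The papillary list counts Dpp4 and the reticular list Dlk1, on whose proteins the cells were sorted. Dlk1 itself read 9.82, 10.10 and 9.99 in papillary and 12.96, 13.04 and 12.90 in reticular arrays, a difference of -3.0 ± 0.08, so the cells gated without Dlk1 protein still gave a Dlk1 signal in the upper range of the scale. Cd34, which both gates required, ranged from 9.78 to 10.12 over the 6 arrays, and Pdgfra, required too, read 7.49, 7.39 and 8.03 and 6.91, 6.89 and 7.40. The Pdgfra difference of 0.57 ± 0.17 had an adjusted p of 0.0265, which was 0.146 without the animal as a block and missed the threshold without animal 2 (0.104) or animal 3 (0.116), or without the papillary array of animal 2 or 3 or the reticular array of animal 1 or 3. The transcripts gated against were at 3.88, 3.89 and 3.90 and 3.83, 4.02 and 3.81 for Ptprc, which encodes CD45, and at 7.09, 7.03 and 6.94 and 7.48, 7.87 and 7.77 for Pecam1, which encodes CD31 and whose call at an adjusted p of 0.0358 was lost without animal 3 (adjusted p = 0.223) or animal 2 (0.0543), with a trend and robust variance (0.0669), and without any papillary array or the reticular array of animal 2 or 3. Kit, which encodes CD117, read 4.95, 4.83 and 4.85 in papillary and 4.30, 4.39 and 4.49 in reticular arrays and was called higher (0.48 ± 0.14, adjusted p = 0.0229) at levels near the bottom of the scale, a call lost without animal 2 (0.136), the papillary array of animal 2 or 3 or the reticular array of animal 1 or 2, and Epcam read 5.62, 6.03 and 5.70 and 6.42, 5.73 and 5.84 and was not called. Medians of the 6 arrays were 6.22 to 6.34, and arrays correlated across genes at 0.993 to 0.995 within a population and at 0.954 to 0.962 between the populations.

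The populations differed in a large part of the measured transcriptome, and mostly by small amounts. Of 17097 genes, 5755 (33.7%) were called, 2904 (17%) higher and 2851 (16.7%) lower in papillary cells. Of the 5755, 5720 had the same sign in all 3 animals, an agreement that calling genes on these same arrays favours. In 6437 genes (37.6%) the 3 papillary values did not overlap the 3 reticular values. A difference of at least 1, which is 2-fold, was reached by 393 called genes higher and 560 lower. At a difference of at least 3 there were 20 higher and 63 lower, and at least 5 was reached by none on the papillary side and by 5 on the reticular side, namely Agtr2, Gfra1, Angptl1, Plat and Thbs4. The large differences thus leaned to the reticular side while the counts of all calls were even. The even count rests on the scaling of the arrays, since after centring each array on its median 3742 genes were higher and 2291 lower, so that 62% of the calls were higher against 50.5% as deposited. Without animal 2 the counts were 2147 higher and 1895 lower.

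**Figure D1:**
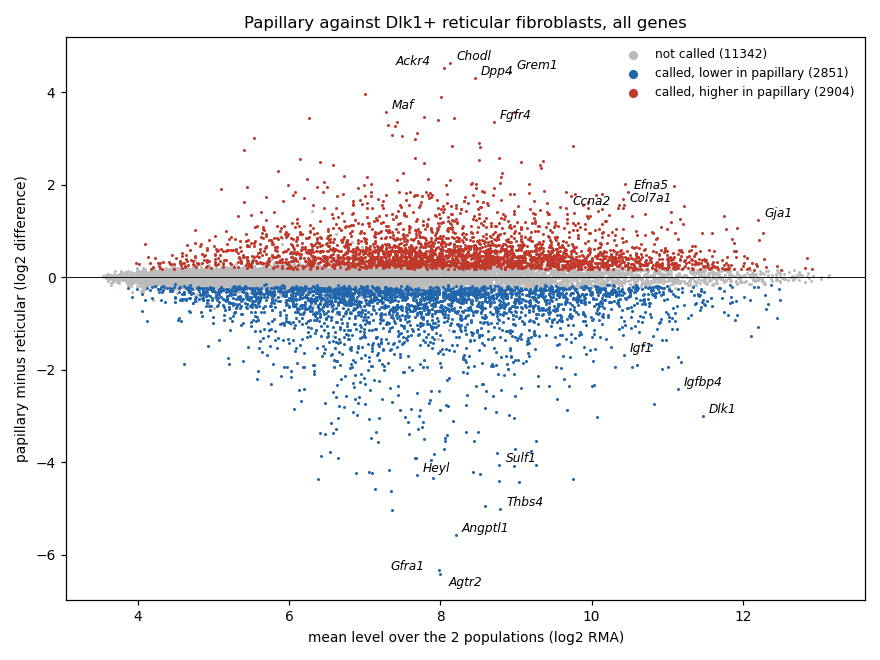
Each point is 1 of 17097 genes, with the mean log2 RMA level over both populations on the horizontal axis and the papillary minus reticular log2 difference on the vertical axis, coloured by whether the gene was called higher or lower in papillary cells. The reticular side reaches -6.42 (Agtr2), while the papillary side ends at 4.64 (Chodl).

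The gene with the largest difference on the papillary side was Chodl, a membrane lectin, which read 10.49, 10.21 and 10.65 in papillary and 6.52, 5.19 and 5.72 in reticular arrays, a difference of 4.64 ± 0.20, or 24.9-fold (adjusted p = 5.74e-08). The atypical receptors Ackr4 and Ackr3 take up chemokines without signalling through G proteins. Ackr4 read 10.56, 10.28 and 10.11 against 5.81, 5.91 and 5.63 and Ackr3 8.75, 8.78 and 9.44 against 5.21, 5.08 and 4.79. In all 3 genes every papillary value was at least 3 units above every reticular one, and the reticular spread was widest in Chodl, with animal 1 highest.

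Several of the next genes act in secretion, at the cell skeleton or in nerve cells. Sytl2, a synaptotagmin-like protein that tethers vesicles, read 10.14, 9.96 and 9.79 in papillary and 6.14, 5.88 and 6.16 in reticular arrays (3.90 ± 0.12). The actin nucleator gene Fmn2 read 9.62, 9.31 and 9.65 against 7.04, 5.52 and 5.60, with the reticular array of animal 1 well above the other two, and differed by 3.47 ± 0.29 (averaged 2.22). Dscam, a neuronal adhesion molecule, was higher by 3.08 ± 0.17 (averaged 1.80) and Nptx1, a neuronal pentraxin, by 3.29 ± 0.13 (averaged 2.0). Zfp536, a zinc finger repressor studied in neurons, was higher by 3.12 ± 0.14. The transcription factor gene Maf read 9.0, 9.08 and 9.12 against 5.47, 5.41 and 5.60, and its 11.9-fold difference had the smallest SE of the 20 (3.57 ± 0.07).

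Genes of the basement membrane zone were also among the 20 largest papillary differences. Fras1, a protein of the junction between epithelium and mesenchyme that is mutated in Fraser syndrome, read 9.86, 9.84 and 10.02 in papillary and 6.59, 6.09 and 6.70 in reticular arrays, a 10.9-fold difference (3.45 ± 0.28, adjusted p = 4.79e-06). Col4a6, a chain of basement membrane collagen, was higher by 3.40 ± 0.11. Prss23, a secreted serine protease, was higher by 3.57 ± 0.21, Ndst3, which sulphates heparan sulphate chains, by 3.35 ± 0.14, and the tetraspanin gene Tspan13 by 3.28 ± 0.37. Pdgfd, a ligand of the platelet-derived growth factor family, read 9.11, 8.78 and 9.18 against 6.17, 5.69 and 6.04 (3.06 ± 0.13). The 20 were chosen among genes without overlap between the groups, so none of these overlapped. Elapor2 (3.44 ± 0.09) and Lancl3 (3.02 ± 0.10), whose roles in skin are less known, stood at 4.47, 4.60 and 4.55 and 3.99, 4.10 and 3.98 in reticular arrays.

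On the reticular side Agtr2 differed by -6.42 ± 0.11, an 85.4-fold difference (adjusted p = 1.74e-10), and Gfra1 by -6.34 ± 0.13 (averaged -4.17). Angptl1, a secreted angiopoietin-like protein, read 5.26, 5.33 and 5.65 in papillary and 11, 11.14 and 10.83 in reticular arrays (47.7-fold). Plat, the tissue plasminogen activator, read 4.88, 4.93 and 4.73 against 9.75, 10.06 and 9.81 (32.6-fold), and Thbs4, a thrombospondin of tendon and muscle matrix, 6.08, 6.33 and 6.44 against 11.10, 11.53 and 11.26 (32.3-fold). The groups were far apart in each of the 3.

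Receptors and signalling genes made up much of the rest of the 20 largest reticular differences. Akap12, a scaffold for protein kinase A, differed by -4.94 ± 0.14, and Pde4b, which breaks down cyclic AMP, read 4.78, 5.11 and 4.96 in papillary and 9.18, 9.16 and 9.18 in reticular arrays (-4.22 ± 0.17, averaged -2.46). Osmr, a receptor subunit for oncostatin M, was lower in papillary cells by -4.24 ± 0.14 and Esr1, the oestrogen receptor alpha, by -4.21 ± 0.15, with Esr1 at 5.81, 6.57 and 6.58 against 10.44, 10.51 and 10.63. The sodium channel gene Scn7a differed by -4.24 ± 0.16 (averaged -1.55). Lgr5, a receptor for R-spondins, and Fzd4, a receptor for Wnt proteins, differed by -4.63 ± 0.13 and -4.16 ± 0.11. Heyl, a Notch target that is also a gene of mural cells, differed by -4.28 ± 0.10 (averaged -2.72). The rule for the 20 required that every reticular value of these genes lie above every papillary value.

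Other large reticular differences fell to membrane and matrix genes. Tmeff2, a membrane protein with follistatin-like domains, differed by -4.42 ± 0.15 (averaged -1.80), and Ms4a4d by -4.36 ± 0.10. Tm4sf1, a tetraspan protein also known from endothelium, read 5.98, 7.63 and 6.12 against 10.98, 11.11 and 10.83, and its SE was the largest of the 20 (-4.40 ± 0.55, averaged -2.20), with the papillary array of animal 2 above the others. Fndc1, which has fibronectin domains, read 8.20, 7.71 and 6.80 against 11.87, 12.07 and 11.85, so the papillary arrays spread over more than 1 unit while the reticular ones were close together. Fabp4, the fatty acid binding protein of fat cells and capillaries, read 5.30, 5.17 and 6.71 against 10.12, 10.27 and 9.85 (-4.35 ± 0.31, averaged -2.55), with the papillary array of animal 3 above the other two. Rtl3, a gene derived from a retrotransposon, differed by -4.25 ± 0.15, and C1s1, a complement protease, by -4.58 ± 0.14.

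**Figure D2:**
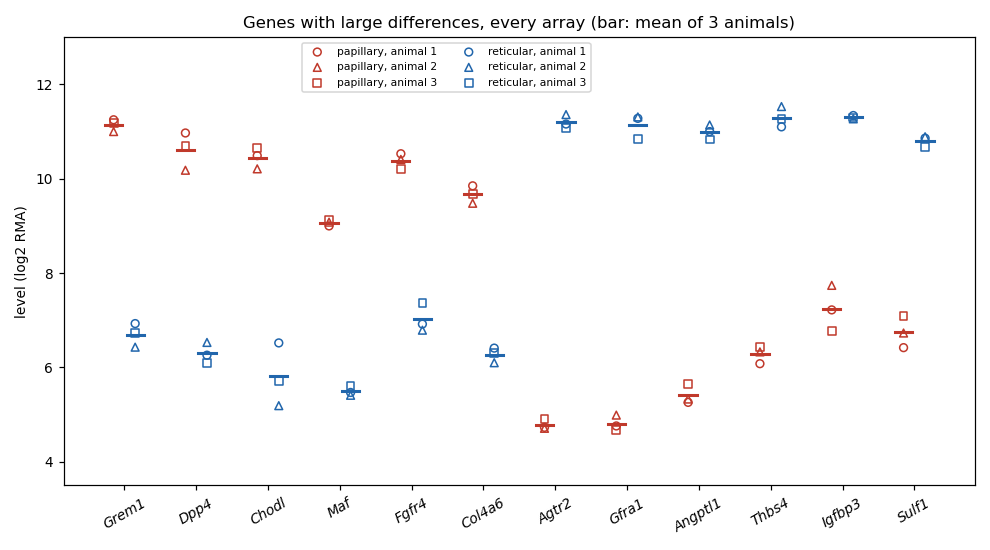
Open symbols are the log2 RMA levels of single arrays for genes with large differences, red for papillary and blue for reticular cells with 1 shape an animal, and bars are the means of 3 animals. The papillary and reticular symbols do not overlap in any gene drawn, and most of these genes were chosen by a rule that required this. The gap is widest for Agtr2.

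The reticular-side genes did not share 1 pattern in the Sca1+ populations, which were not part of this comparison. Thbs4 had a mean of 11.30 ± 0.22 (SD, n = 3) in reticular cells and 8.58 in the Dlk1+ Sca1+ population, and was at 6.0 in the Dlk1− Sca1+ population, near its papillary mean (6.28 ± 0.18). Plat, in contrast, was at 9.87 ± 0.16, 10.22 and 10.42 in that order, and Akap12 at 11.06 ± 0.14, 11.47 and 11.24. Angptl1 stood between these, at 10.99 ± 0.16, 9.94 and 6.82. The markers Agtr2 (11.20 ± 0.14, 11.46 and 9.98) and Gfra1 (11.15 ± 0.26, 10.23 and 9.16) were not particular to reticular cells. Both Sca1+ populations were far above the papillary means of these markers, 4.78 and 4.81. Ms4a4d (8.56 ± 0.14, 10.06 and 9.66) and Fabp4 (10.08 ± 0.21, 12.28 and 12.47) were higher in both Sca1+ populations than in reticular cells. On the papillary side Chodl was at 5.03 and 5.03 in the Sca1+ populations, Ackr4 at 5.15 and 5.53 and Fras1 at 6.73 and 7.30, all within 1 unit of their reticular means of 5.81, 5.78 and 6.46. Prss23 was at 8.15 in the Dlk1− Sca1+ and 5.84 in the Dlk1+ Sca1+ population, on either side of its reticular mean of 7.19 ± 0.24, and Fgfr4 was at 6.24 and 5.64 in that order, below its reticular mean of 7.03 ± 0.30.

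To see which kinds of genes took part, members of 58 gene lists by role were counted, each beside the share of all genes called, 17% higher and 16.7% lower, and the median difference of all genes, -0.01. Counts of 3 or fewer members are small enough that many moved by 1 or more under an alternative setting or when a library was left out. Larger counts that moved by over 1.5 times are given with that value.

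**Figure D3:**
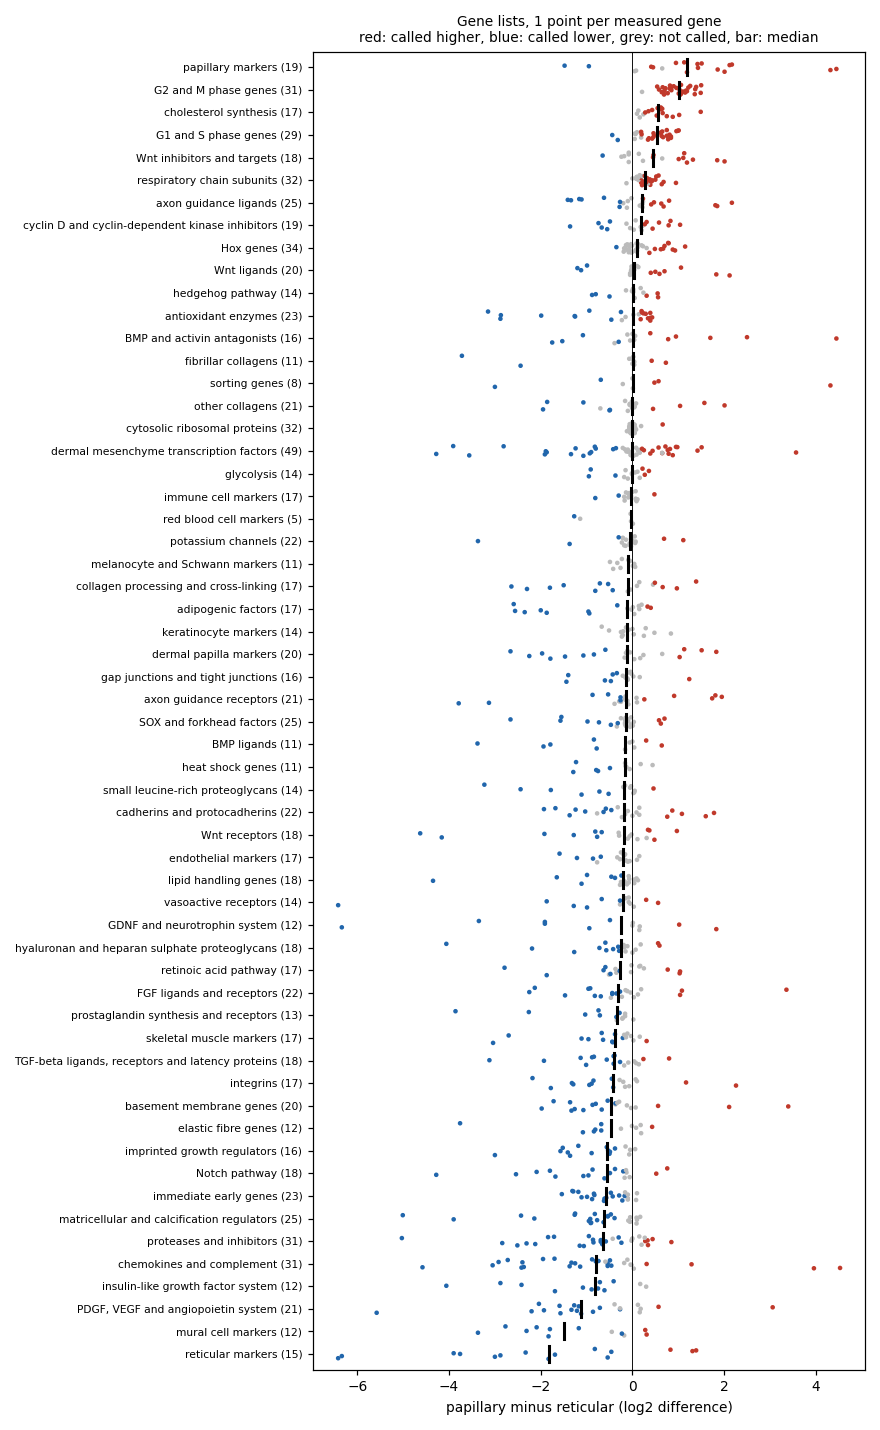
Each point is a measured gene of a list, placed by its papillary minus reticular log2 difference and coloured by its call (red higher, blue lower, grey not called), with 1 row a list, the number measured in brackets and a bar at the median. Rows are ordered by the median, from -1.83 for reticular markers to 1.19 for papillary markers, and 30 of the 31 genes of the G2 and M phases are red.

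Cell division genes were higher in papillary cells almost throughout. Of 31 measured genes of the G2 and M phases, 30 were higher and none lower, with a median difference of 1.01. Ccna2, the cyclin of S and G2 phase, read 10.19, 10.57 and 10.46 in papillary and 8.87, 8.89 and 9.0 in reticular arrays (1.49 ± 0.09, adjusted p = 7e-07). The spindle checkpoint kinase gene Ttk read 7.50, 8.09 and 7.92 against 6.25, 6.28 and 6.48 (1.50 ± 0.14, averaged 0.98), and the mitotic kinase gene Aurkb 8.40, 8.82 and 8.76 against 6.98, 7.53 and 7.38 (1.36 ± 0.09). In the papillary population animal 1 was the lowest of the 3 in each of these genes, and no papillary value reached the reticular range. The exception was the phosphatase gene Cdc25c, at 6.34, 6.65 and 6.54 and 6.31, 6.36 and 6.22 (0.21 ± 0.09, adjusted p = 0.101).

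Of 29 measured genes of G1 and S phase, 22 were higher, 2 lower and 5 not called, with a median of 0.54. Tyms and Rrm2, which make DNA precursors, were higher by 1.01 ± 0.09 (averaged 0.28) and 0.96 ± 0.10, the ligase gene Lig1 by 0.84 ± 0.09, and Mcm5, a part of the replicative helicase, by 0.81 ± 0.13 (averaged 0.38). Pcna, the sliding clamp of DNA polymerase, read 10.95, 10.99 and 11.09 against 10.93, 10.98 and 10.97, and the licensing factor gene Cdt1 8.72, 8.86 and 9.08 against 8.78, 8.94 and 8.79, and neither was called. Among 19 D-type cyclins, kinase inhibitors and other growth arrest genes, 7 were higher and 5 lower. Cdkn1c, a kinase inhibitor that is imprinted, read 10.30, 10.33 and 10.29 in papillary and 11.56, 11.74 and 11.69 in reticular arrays, a difference of -1.36 ± 0.06, and Cdkn1a, an inhibitor induced by p53, was lower by -0.67 ± 0.10. The inhibitor gene Cdkn2c moved the other way (1.04 ± 0.10), as did Cdkn2b (0.79 ± 0.13). Cyclin D1 was not called, at 11.09, 11.18 and 11.02 against 10.96, 10.69 and 11.05.

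The promoters of these lists are shown because the genes moved together and promoters of mitotic genes are known for a paired arrangement of a CCAAT box (CCAAT, bound by NF-Y) and a cell cycle homology region (TTTGAA, bound by the DREAM and MuvB complexes). RefSeq windows of 250 bases before to 50 after a gene's start, in build GRCm38.p6, were found for 13605 of the 17097 genes, 17065 windows in all, and were searched on both strands. The cell cycle homology region was in 81.5% of the 27 windows of the G2 and M phase list and in 13.4% of all windows, and the CCAAT box in 77.8% against 37.6%. Among all genes called higher these letters were in 13.1% and 39.1% of windows, close to the share of all windows. The 150 bases before the start of 3 genes of the list follow, picked after their values were seen as genes with a large difference and both motifs in this stretch. Capitals mark the motifs on either strand, so that TTCAAA and ATTGG are the same motifs read on the other strand.
Mki67, chr7:135716380-135716529, minus strand: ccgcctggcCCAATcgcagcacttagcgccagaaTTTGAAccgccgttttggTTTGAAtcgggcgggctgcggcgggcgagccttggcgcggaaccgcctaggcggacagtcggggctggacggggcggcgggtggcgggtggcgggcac
Kif11, chr19:37376232-37376381, plus strand: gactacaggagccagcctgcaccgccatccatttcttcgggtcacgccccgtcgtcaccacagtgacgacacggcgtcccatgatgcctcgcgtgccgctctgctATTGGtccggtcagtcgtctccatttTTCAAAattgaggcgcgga
Top2a, chr11:99024190-99024339, minus strand: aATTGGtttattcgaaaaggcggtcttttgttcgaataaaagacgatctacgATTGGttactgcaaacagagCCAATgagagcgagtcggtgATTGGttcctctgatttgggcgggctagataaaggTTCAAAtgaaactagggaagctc
Mki67, the classical antigen of proliferating cells, was higher by 1.22 ± 0.13 in papillary cells, the spindle motor gene Kif11 by 1.37 ± 0.14 and the topoisomerase gene Top2a by 1.26 ± 0.11 (averaged 0.39). In Kif11 the CCAAT box begins 45 and the homology region 19 bases before the start, and in Top2a the nearest boxes begin 58 and 23 bases before it, while Mki67 holds the homology region at 116 and again at 98.

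In the G1 and S phase list an E2F-like motif (GCGGGAA) was in 43.3% of 30 windows, against 6.59% of all windows and 0% of the G2 and M phase windows. The homology region, by contrast, was in 10% of the G1 and S phase windows. Examples, picked the same way, are Cdc6, which loads the replicative helicase, and Rrm1, the large subunit of ribonucleotide reductase, with the motif in capitals on either strand.
Cdc6, chr11:98908001-98908150, plus strand: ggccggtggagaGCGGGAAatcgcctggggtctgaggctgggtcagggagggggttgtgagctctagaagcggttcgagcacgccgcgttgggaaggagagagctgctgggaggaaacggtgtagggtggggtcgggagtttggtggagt
Rrm1, chr7:102441545-102441694, plus strand: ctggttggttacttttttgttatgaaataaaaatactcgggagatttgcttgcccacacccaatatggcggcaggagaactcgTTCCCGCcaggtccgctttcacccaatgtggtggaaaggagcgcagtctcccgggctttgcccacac
Cdc6 was higher by 0.78 ± 0.08 and Rrm1 by 0.65 ± 0.10. A match of letters is a description of the window and does not show that a factor binds there.

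**Figure D4:**
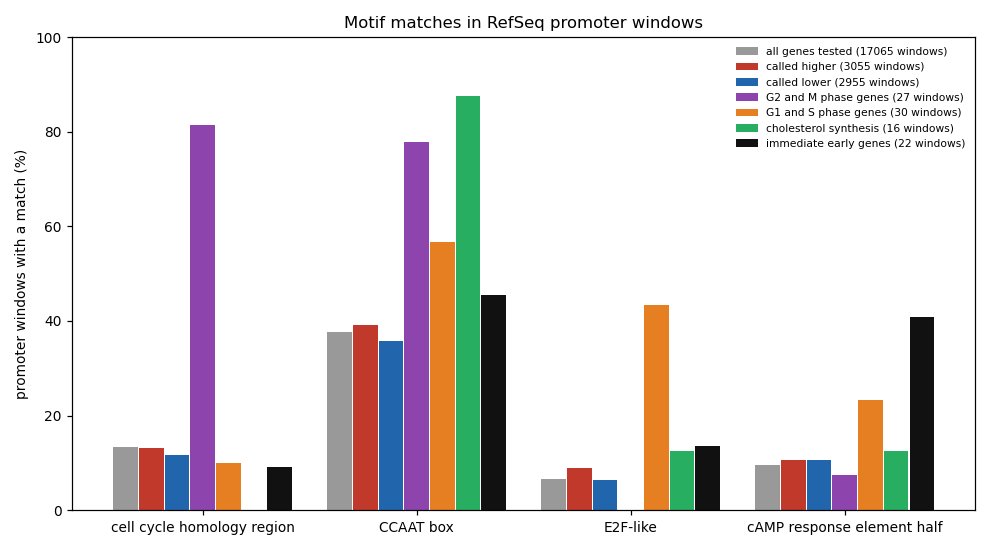
Bars give the percent of 300-base promoter windows that hold each motif on either strand, for all genes, for genes called higher or lower and for gene lists. The G2 and M phase list reaches 81.5% for the cell cycle homology region, against 13.4% of all windows.

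Genes of cholesterol synthesis were called in 1 direction as well. Of 17 measured, 13 were higher and none lower, with a median of 0.55. Lss, which closes the sterol ring, read 7.64, 7.05 and 7.40 in papillary and 5.74, 5.80 and 6.08 in reticular arrays (1.49 ± 0.14), and Fdps, which makes farnesyl diphosphate, 8.44, 8.21 and 8.52 against 7.28, 7.49 and 7.34 (1.02 ± 0.13). Dhcr7, which acts at the last step, was higher by 0.88 ± 0.07 and Sc5d by 0.65 ± 0.07. These values did not overlap, and Cyp51 was among the 4 genes not called, at 10.54, 10.63 and 10.73 against 10.23, 10.59 and 10.59. The CCAAT box was in 87.5% of the 16 windows of this list, against 37.6% of all windows, and it is known there as a partner of the sterol regulatory factor SREBP2. The windows of Lss, Ebp, a sterol isomerase, and Idi1, which isomerizes isopentenyl diphosphate, are shown with the box in capitals.
Lss, chr10:76531455-76531604, plus strand: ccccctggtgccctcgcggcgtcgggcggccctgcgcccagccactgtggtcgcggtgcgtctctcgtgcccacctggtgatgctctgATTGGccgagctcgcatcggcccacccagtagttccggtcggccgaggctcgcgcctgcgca
Ebp, chrX:8193513-8193662, minus strand: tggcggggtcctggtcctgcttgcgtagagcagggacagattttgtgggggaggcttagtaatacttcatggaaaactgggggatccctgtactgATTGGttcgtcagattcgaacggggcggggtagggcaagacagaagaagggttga
Idi1, chr13:8885456-8885605, plus strand: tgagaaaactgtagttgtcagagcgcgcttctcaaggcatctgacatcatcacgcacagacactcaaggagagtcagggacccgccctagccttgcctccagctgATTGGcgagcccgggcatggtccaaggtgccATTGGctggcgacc
Ebp was higher in papillary cells by 0.75 ± 0.09 and Idi1 by 0.66 ± 0.09. Idi1 holds the box at 45 and 14 bases before the start, Lss at 62 and Ebp at 55.

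Other parts of metabolism moved by less. Of 32 subunits of the mitochondrial respiratory chain, 22 were higher and none lower, but the median was 0.27, and without animal 2 the count was 11. Cox6c read 12.68, 12.73 and 12.81 against 11.80, 11.70 and 11.87 (0.95 ± 0.06) and Ndufa1 was higher by 0.68 ± 0.06. Of 32 cytosolic ribosomal proteins 31 were not called, and the exception was Rps27l, a p53-responsive relative of a ribosomal protein, higher by 0.66 ± 0.08, with 5 higher when probe sets were averaged. Of 14 glycolysis genes 3 were higher and 3 lower, near the share of all genes. Those higher differed by at most 0.36. Those lower were Hk2, hexokinase 2 (-0.95 ± 0.09), the glucose carrier gene Slc2a1 (-0.91 ± 0.15) and Ldha, lactate dehydrogenase A (-0.37 ± 0.06).

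Antioxidant genes also split, but unevenly in size. Of 23 measured, 10 were higher (5 without animal 2, and 6 without animal 3, without the papillary array of animal 2 or 3 or in a fit of only the 6 arrays compared) and 9 lower, and the 5 largest differences were all on the reticular side. Sod3, the superoxide dismutase of the extracellular space, read 4.95, 5.06 and 4.92 in papillary and 8.27, 8.14 and 7.98 in reticular arrays, an 8.9-fold difference (averaged -1.88 on the log2 scale). Mgst1, a microsomal glutathione transferase, differed by -2.87 ± 0.09 (averaged -1.40) and Hmox1, haem oxygenase 1, by -1.99 ± 0.06. Gstm1 and Gstm2 (-1.25 ± 0.07, averaged -0.81, and -1.26 ± 0.07) are close relatives whose probe sets may share signal. In Dlk1− Sca1+ cells Sod3 was at 5.32, near its papillary mean of 4.98, while Hmox1 was at 10.96.

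Insulin-like and vascular growth factor genes were mostly lower in papillary cells. In the insulin-like growth factor list 10 of 12 genes were lower and none higher, with a median of -0.82. Igfbp3, the main carrier of these factors in blood, read 7.22, 7.74 and 6.77 in papillary and 11.34, 11.27 and 11.30 in reticular arrays (16.7-fold). The carriers Igfbp6 and Igfbp4 differed by -2.88 ± 0.10 and -2.42 ± 0.07, and the ligands Igf1 and Igf2 by -1.69 ± 0.09 and -0.89 ± 0.06. The 2 members not called were carriers, with Igfbp2 at 8.85, 8.72 and 8.68 against 8.53, 8.14 and 8.69 and Igfbp5 at 8.29, 8.34 and 8.05 against 8.50, 7.89 and 7.79. In the list of PDGF, VEGF and angiopoietin genes 14 of 21 were lower and 2 higher. Hgf, the ligand of Met, read 5.62, 5.58 and 5.56 against 7.71, 8.17 and 7.48 (-2.20 ± 0.16, averaged -1.07), Vegfd, a lymphatic growth factor, was lower by -2.04 ± 0.12, Kitl, the ligand of Kit, by -1.93 ± 0.13, and Tek, the angiopoietin receptor, by -1.59 ± 0.11. Pdgfd, given above, moved against the list.

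The called secreted FGF ligands stood on the reticular side and the called receptors on the papillary side. Of 22 genes measured, feedback genes included, 3 were higher and 11 lower (7 lower without animal 3). The ligands Fgf7 and Fgf10, which act on epithelium, were lower in papillary cells by -2.25 ± 0.09 and -1.47 ± 0.10, and Fgf7 read 6.28, 6.09 and 5.84 against 8.37, 8.31 and 8.29. The receptor gene Fgfr4 read 10.53, 10.41 and 10.21 in papillary and 6.92, 6.79 and 7.37 in reticular arrays, a 10.2-fold difference the other way, and Fgfr2 was higher by 1.08 ± 0.08. Fgf13, an intracellular member of the family that does not act as a secreted ligand, was the third higher gene (1.04 ± 0.11). Spry4, an inhibitor induced by this signalling, was lower by -2.13 ± 0.11.

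BMP ligands and their antagonists split by member. Of 11 genes in the ligand list 2 were higher and 5 lower (3 lower without animal 3, without the papillary array of animal 1 or without the reticular array of animal 3, and with a trend and robust variance). The list also holds Inhba, an activin subunit gene that was lower, and the protease gene Bmp1, which was not called. Gdf10 read 5.57, 6.05 and 6.07 in papillary and 9.16, 9.30 and 9.36 in reticular arrays (10.4-fold), and Bmp5 was lower by -1.94 ± 0.19 and Bmp7 by -1.79 ± 0.35, while Bmp6 was higher by 0.64 ± 0.09. Bmp4 read 8.71, 8.93 and 8.93 against 8.77, 8.51 and 9.18 and was not called. Of 16 antagonists 6 were higher and 4 lower. Nbl1, which binds BMPs, read 10.28, 10.32 and 10.36 against 8.17, 7.60 and 7.70 (2.50 ± 0.11) and was higher, like Grem1 (4.45 ± 0.13), whereas Bmper and Chrdl1, also secreted BMP binders, were lower by -1.75 ± 0.14 and -1.53 ± 0.13. Smad7, an inhibitor inside the cell that the signal induces, was lower by -1.08 ± 0.13. In the TGF-beta list 11 of 18 were lower and 2 higher. The latency proteins Ltbp2 and Ltbp1, which hold TGF-beta in the matrix, differed by -3.12 ± 0.16 and -1.93 ± 0.11 (averaged -0.82), the ligands Tgfb2 and Tgfb3 by -1.13 ± 0.10 and -0.88 ± 0.09, and the receptor gene Tgfbr1 by -0.84 ± 0.10. The values of these 5 genes did not overlap.

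Wnt genes were called on both sides. Of 18 inhibitors and targets 9 were higher and 1 lower, with a median of 0.45, and of 18 receptors 4 were higher (2 without animal 3) and 7 lower. The inhibitors Dkk2 and Dkk3 were higher by 1.85 ± 0.19 and 1.32 ± 0.08, and Dkk2 read 9.01, 8.35 and 8.84 against 7.02, 7.09 and 6.55. The target gene Axin2 read 9.68, 9.47 and 9.29 in papillary and 7.53, 7.27 and 7.60 in reticular arrays, a 4.04-fold difference. Lgr4, a receptor for R-spondins, was lower by -1.92 ± 0.15 (averaged -1.19) and Fzd8 by -1.28 ± 0.10, next to the larger reticular-side differences of Lgr5 and Fzd4. Of 20 ligands and agonists 7 were higher and 3 lower, with Rspo1 and Rspo3, which amplify Wnt signals, higher by 2.12 ± 0.15 and 1.83 ± 0.13, and Wnt5a and Wnt2b lower by -1.20 ± 0.20 and -1.12 ± 0.08. Lef1, the transcription factor of the pathway, read 7.42, 7.38 and 7.06 against 6.92, 6.32 and 6.67. Its values did not overlap, but its adjusted p was 0.0642, and it passed in a fit of only the 6 arrays compared (0.008), without animal 1 (0.00813), with the arrays centred (0.0363) and after repeated quantile normalization (0.0441).

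Notch and hedgehog genes were the remaining short-range pathways. Of 18 Notch genes 12 were lower and 2 higher. The ligand gene Jag1 read 6.77, 7.40 and 7.09 in papillary and 9.69, 9.66 and 9.52 in reticular arrays (-2.54 ± 0.13), the receptors Notch1 and Notch3 differed by -2.09 ± 0.14 and -1.80 ± 0.12, and the targets Hes1 and Hey1 by -1.68 ± 0.08 and -1.07 ± 0.11. Notch3 and Heyl also mark mural cells, whose levels are given at the end of these results. Of 14 hedgehog genes 3 were higher (5 with arrays centred or with probe sets averaged) and 3 lower, near the share of all genes. Gli1, a target of the pathway, was lower by -0.88 ± 0.14 and Gli2 by -0.80 ± 0.07, while Cdon, a co-receptor, was higher by 0.56 ± 0.08. The receptor gene Ptch1 read 10.35, 10.41 and 10.56 against 10.56, 10.43 and 10.76 and was not called.

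Genes known from the nervous system differed on both sides. Of 12 GDNF and neurotrophin genes 6 were lower and 2 higher (4 with arrays centred). The neurotrophin receptors Ntrk3, Ntrk2 and Ngfr were lower in papillary cells by -3.35 ± 0.08, -1.91 ± 0.10 (averaged -1.26) and -1.91 ± 0.12. Bdnf, a ligand of Ntrk2, read 8.43, 8.06 and 8.90 in papillary and 6.48, 6.60 and 6.83 in reticular arrays and was higher (1.83 ± 0.15), so ligand and receptor stood on opposite sides. Gfra4 was higher by 1.02 ± 0.11, against the large reticular-side difference of Gfra1.

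Of 25 axon guidance ligands 9 were higher and 7 lower, and of 21 receptors 5 were higher and 6 lower. The repellent Sema3a read 8.40, 7.93 and 8.03 in papillary and 5.65, 5.79 and 6.40 in reticular arrays (2.17 ± 0.15). The ephrins Efna5 and Efnb2 were higher by 1.85 ± 0.08 and 1.81 ± 0.13, while the ephrin receptors Epha3 and Epha4 were lower by -3.79 ± 0.11 and -3.13 ± 0.20. Epha3 read 7.0, 6.72 and 6.83 against 10.59, 10.81 and 10.53, a 13.9-fold difference, so these ligands and receptors too stood on opposite sides. The receptors of Slit proteins Robo2 and Robo1 were higher by 1.81 ± 0.11 and 0.91 ± 0.11, and the plexins Plxnc1 and Plxna4 by 1.95 ± 0.12 (averaged 1.06) and 1.74 ± 0.12. On the reticular side were the semaphorins Sema3g (-1.34 ± 0.10), Sema6a (-1.16 ± 0.08) and Sema4a (-1.41 ± 0.15).

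Of the local hormone systems, prostaglandin genes had no call on the papillary side. None of 13 prostaglandin genes was higher and 7 were lower. Ptgs2, the inducible cyclooxygenase, read 4.40, 4.35 and 4.74 in papillary and 8.39, 8.46 and 8.21 in reticular arrays (14.5-fold), and Ptgis, which makes prostacyclin, differed by -2.26 ± 0.13. Of 14 vasoactive genes 6 were lower and 2 higher. Next to Agtr2 these included the other angiotensin receptor gene Agtr1a (-1.28 ± 0.13), Ace, the angiotensin-converting enzyme (-0.99 ± 0.10), and Nppc, which encodes C-type natriuretic peptide (-1.87 ± 0.12), while Ednrb, an endothelin receptor, was higher by 0.56 ± 0.11. In the retinoic acid list 3 of 17 were higher (5 with arrays centred) and 6 lower. Rbp4, the retinol carrier, read 6.86, 6.66 and 6.59 against 9.28, 9.74 and 9.46, and Aldh1a1, which makes retinoic acid, was lower by -1.87 ± 0.15, while Cyp26b1, which degrades it, was higher by 1.04 ± 0.11 and the receptor gene Rarg by 0.77 ± 0.10.

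The main fibrillar collagens were near the top of the scale in both populations. Col1a1 read 13.13, 13.12 and 13.13 in papillary and 13.09, 13.16 and 13.13 in reticular arrays, Col3a1 12.90, 12.88 and 12.79 against 12.93, 12.97 and 12.89 and Dcn, the proteoglycan decorin, 12.85, 12.80 and 12.76 against 12.73, 12.81 and 12.74. None of the 3 was called, though Col3a1 was higher (0.18, adjusted p = 0.0227) when its probe sets were averaged, and probe sets this bright leave little room to show a difference. Of 11 fibrillar collagens 2 were higher and 2 lower, near the share of all genes. Col5a3 read 6.97, 7.24 and 7.17 against 10.77, 11.03 and 10.75 (-3.72 ± 0.07, averaged -2.45) and Col11a1, which nucleates thin fibrils, 5.95, 5.83 and 5.79 against 8.51, 8.26 and 8.11 (-2.44 ± 0.18, averaged -1.22), both lower in papillary cells, while Col1a2 was higher by 0.73 ± 0.07. Of 21 other collagens 4 were higher and 5 lower. Col7a1, the anchoring fibril collagen that ties the epidermal basement membrane to the dermis, read 11.34, 11.16 and 11.12 in papillary and 9.68, 9.38 and 9.86 in reticular arrays and was higher by 1.57 ± 0.13, as was Col26a1 by 2.01 ± 0.16. Col14a1, which lies on fibril surfaces, was lower by -1.95 ± 0.09.

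Basement membrane genes showed a split between collagen IV chains. Of 20 measured, 3 were higher and 11 lower, with a median of -0.46. The paired X-linked genes Col4a5 and Col4a6 were higher, with Col4a5 at 9.51, 8.92 and 9.12 against 7.22, 7.18 and 6.82 (2.11 ± 0.16). Col4a2, a chain of the widespread collagen IV form, read 10.08, 9.95 and 9.79 against 11.91, 12 and 11.84 and was lower by -1.98 ± 0.06. Nid1 (nidogen 1) and Lamc1 (laminin gamma 1) were lower by -1.72 ± 0.07 and -1.36 ± 0.08. The difference of each of these genes had the same sign in all 3 animals.

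Matricellular genes had no call on the papillary side. Of 25 matricellular and calcification genes 17 were lower and none higher, with a median of -0.63. Mgp, an inhibitor of calcification, read 5.87, 5.68 and 5.62 in papillary and 9.68, 9.83 and 9.36 in reticular arrays (14.9-fold). Besides Thbs4, Thbs3 was lower by -2.43 ± 0.07, Smoc1, a calcium-binding matrix protein, by -2.14 ± 0.15 and tenascin C (Tnc) by -1.26 ± 0.08. Fn1, fibronectin, and Sparc were not called, at 11.91, 11.96 and 11.93 against 11.92, 12.09 and 12.07 and 12.92, 12.91 and 12.88 against 12.82, 12.85 and 12.77. In elastic fibre genes 6 of 12 were lower and 1 was higher. Elastin itself, Eln, read 11.70, 11.75 and 11.52 against 12.66, 12.82 and 12.73 (-1.08 ± 0.08), Emilin1 was lower by -0.84 ± 0.14 and Fbln1, fibulin 1, by -0.81 ± 0.08, and the microfibril gene Mfap5, counted among the reticular markers, by -3.76 ± 0.16.

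Among small leucine-rich proteoglycans 6 of 14 were lower and 1 higher. Prelp read 6.45, 6.34 and 5.64 against 9.40, 9.53 and 9.18 (-3.23 ± 0.16), keratocan (Kera) was lower by -2.44 ± 0.20, and Fmod and Aspn, which bind collagen, by -1.78 ± 0.11 and -1.11 ± 0.11. Of 17 collagen processing genes 4 were higher and 8 lower. P4ha3, a prolyl hydroxylase, and Loxl3, a lysyl oxidase, were lower by -2.64 ± 0.15 and -2.30 ± 0.11, and Pcolce, which speeds procollagen cleavage, by -1.50 ± 0.08. Tgm2, a transglutaminase that cross-links matrix, was higher by 1.39 ± 0.11 and Loxl4 by 0.97 ± 0.13. In hyaluronan and heparan sulphate genes 9 of 18 were lower and 2 higher. Sulf1, which trims sulphate from heparan sulphate, read 6.42, 6.73 and 7.09 in papillary and 10.86, 10.89 and 10.68 in reticular arrays (-4.06 ± 0.14, averaged -2.09), in contrast to Ndst3, which adds it, and the hyaluronan synthases Has1 and Has2 were lower by -2.19 ± 0.12 and -0.72 ± 0.09.

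Of 31 proteases and inhibitors 19 were lower and 5 higher (3 higher without animal 2). The list held 15 measured genes of the Adam and Adamts families of metalloproteases, of which 12 were lower and 2 higher. Adamts20 read 4.30, 4.61 and 5.03 against 6.93, 7.31 and 8.22 (-2.84 ± 0.18), Adamts12 was lower by -2.12 ± 0.06, Adamts18 by -2.31 ± 0.15 (averaged -1.53) and Adam23, a family member without protease activity, by -2.51 ± 0.19 (averaged -1.52). Serpinf1, an inhibitor of vessel growth, was lower by -1.84 ± 0.10. The gelatinase gene Mmp2 was not called, at 11.82, 11.82 and 11.76 against 11.92, 11.84 and 11.66. Htra1, a serine protease counted with the BMP antagonists, was higher, at 11.36, 11.17 and 11.25 against 9.53, 9.59 and 9.55 (1.70 ± 0.10).

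**Figure D5:**
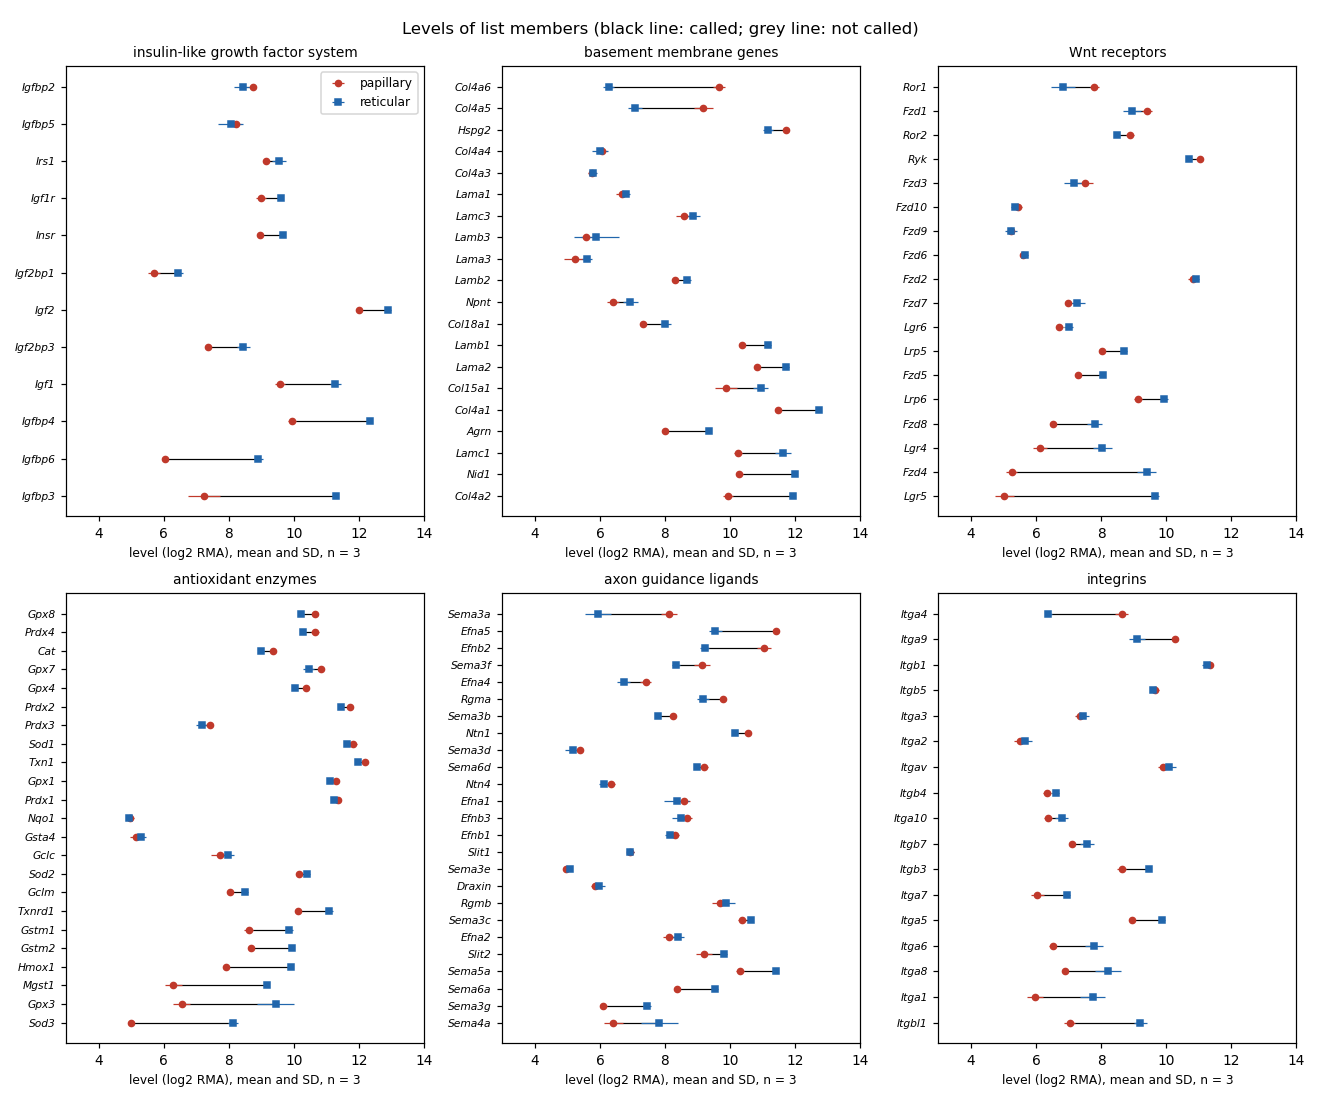
Panels give the log2 RMA level of each member of 6 gene lists, with means as red circles for papillary and blue squares for reticular cells and bars for the SD over 3 animals. The line between the means is black where the gene was called, and within most lists members lie on both sides, while in the insulin-like growth factor list all 10 called genes are higher in reticular cells.

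Adhesion genes were called in both directions. Of 17 integrin genes 2 were higher and 9 lower. Itga4 and Itga9, which encode closely related alpha chains, were the 2 higher genes, and Itga4 read 8.63, 8.45 and 8.85 in papillary and 6.29, 6.36 and 6.49 in reticular arrays (2.26 ± 0.08), with Itga9 at 1.17 ± 0.09. The chains for collagen and laminin, Itga1 and Itga6, were lower by -1.78 ± 0.17 and -1.29 ± 0.13, and Itga8 by -1.32 ± 0.14, while the common beta chain gene Itgb1 was not called, at 11.43, 11.37 and 11.27 against 11.41, 11.30 and 11.07. Of 22 cadherins 5 were higher and 8 lower. Cdh6 and Cdh13 were higher by 1.78 ± 0.15 and 1.60 ± 0.18 and Cdh2, N-cadherin, and Pcdh7 lower by -1.37 ± 0.23 (-0.90 without animal 1) and -1.68 ± 0.19. In the gap and tight junction list 1 of 16 was higher and 6 were lower. The higher gene was Gja1, the main connexin of skin fibroblasts, at 12.88, 12.78 and 12.81 against 11.72, 11.56 and 11.47 (1.24 ± 0.10). Of 22 potassium channel genes 17 were not called, and Kcnj8, a channel gated by ATP that is also a pericyte marker, read 4.82, 4.74 and 4.62 in papillary and 8.35, 8.23 and 7.72 in reticular arrays (-3.37 ± 0.12).

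Transcription factor genes of the dermis split evenly, with 16 of 49 higher and 16 lower. Zfhx4 and Zfhx3, large homeodomain factors, were lower by -3.91 ± 0.16 and -2.81 ± 0.15, and Zfhx4 read 4.38, 4.88 and 4.80 in papillary and 8.74, 8.64 and 8.42 in reticular arrays. The zinc finger gene Bnc2 was lower by -3.56 ± 0.36 and Foxp1 by -1.91 ± 0.17 (averaged -1.19). On the papillary side, beside Maf, Trps1, a repressor of the GATA family counted with the dermal papilla genes, read 11.22, 10.98 and 11.11 against 9.67, 9.32 and 9.79 (1.51 ± 0.09). Of 25 SOX and forkhead factors 3 were higher and 7 lower, with Sox18, Sox11 and Sox9 lower by -2.66 ± 0.19, -1.57 ± 0.08 and -1.55 ± 0.28 (averaged -0.66) and Sox4 higher by 0.70 ± 0.11. Sox18 is also a gene of endothelium and of the dermal papilla. Of 20 dermal papilla markers 4 were higher (7 with arrays centred) and 8 lower, and Prom1, which encodes prominin, was at 6.01, 5.68 and 5.77 against 7.66, 7.66 and 8.05.

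Of 34 Hox genes, which record position along the body, 10 were higher and 1 was lower, with a median of 0.09. Hoxc4 read 8.62, 8.58 and 8.94 in papillary and 7.43, 7.68 and 7.57 in reticular arrays (1.15 ± 0.09), and Hoxa9, Hoxb2, Hoxd8 and Hoxd9 were higher by 0.93 ± 0.09, 0.88 ± 0.07, 0.79 ± 0.08 and 0.78 ± 0.08. Members of all 4 clusters were thus among those higher, while 23 of 34 were not called.

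Of 17 adipogenic factors 8 were lower and 2 higher. The commitment factors Zfp423 and Ebf2 were lower by -2.59 ± 0.12 and -2.56 ± 0.14, and Ebf3 by -2.0 ± 0.13. Cebpd and Cebpb, early factors of fat cell formation that also respond to cytokines, were lower by -2.35 ± 0.12 and -1.87 ± 0.09 (averaged -0.71), and Cebpd read 7.32, 7.14 and 7.43 against 9.69, 9.82 and 9.44. Of 18 genes for handling lipid 7 were lower (4 without animal 2, without animal 3 or without the reticular array of animal 2) and none higher. Lpl, lipoprotein lipase, read 8.94, 9.03 and 9.35 against 10.93, 10.61 and 10.72 (-1.65 ± 0.10), and the fatty acid synthase gene Fasn was not called, at 9.10, 9.07 and 9.12 against 8.99, 9.10 and 9.08. For Lpl the Dlk1+ Sca1+ mean was 12.19 and the Dlk1− Sca1+ mean 12.17, above both populations compared.

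Imprinted growth regulators, whose expression depends on the parent of origin, had 12 of 16 members lower and none higher, with a median of -0.55. Mirg, a noncoding RNA of the Dlk1 locus, read 9.10, 9.27 and 9.19 against 10.61, 10.95 and 10.71 (-1.57 ± 0.07). Magel2 was lower by -1.41 ± 0.14, Zim1 by -1.18 ± 0.10 and Ppp1r9a, which is imprinted in some tissues, by -1.52 ± 0.12. Dlk1 itself is counted in this list as its largest difference, and the sort for Dlk1 protein selected on that gene. Igf2 and Cdkn1c, given above, are imprinted as well.

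Chemokine and complement genes were mostly lower in papillary cells. Of 31 measured, 21 were lower and 4 higher, with a median of -0.79. Cxcl12, which attracts leukocytes and stem cells, read 7.37, 7.09 and 7.39 in papillary and 10.28, 10.17 and 10.15 in reticular arrays (7.55-fold), and it is a ligand of Ackr3, which stood on the papillary side. The monocyte chemokine gene Ccl7 was lower by -3.05 ± 0.10 and Cxcl9, a chemokine induced by interferon gamma, by -2.72 ± 0.25. Markers of immune cells themselves were not called in 14 of 17 cases, and Cd68, a lysosomal protein of macrophages that fibroblasts also make, was lower by -0.81 ± 0.10.

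Immediate early genes, which respond within minutes to handling and digestion of tissue, had 17 of 23 members lower in papillary cells and none higher, with a median of -0.57. Klf2 read 7.23, 7.30 and 7.40 against 8.85, 9.02 and 8.68 (-1.54 ± 0.11), and the 3 nuclear receptors Nr4a1, Nr4a2 and Nr4a3 were lower by -1.18 ± 0.09, -1.29 ± 0.06 and -1.31 ± 0.07. Fos and Egr1 were near the top of the scale and not called, at 12.44, 12.45 and 12.44 against 12.54, 12.58 and 12.51 and 12.75, 12.74 and 12.83 against 12.89, 12.88 and 12.85. Of 11 heat shock genes 5 were lower (8 with a trend and robust variance) and none higher, with Hsph1 lower by -1.23 ± 0.16 and Bag3 by -1.29 ± 0.14. The core of the cAMP response element (TGACGT) was in 40.9% of the 22 windows of the immediate early list, against 9.65% of all windows. Among all genes called lower it was in 10.6% of windows, and among those lower by at least 1 in 7.09%. In the G1 and S phase list, whose members were mostly higher, it was in 23.3%. The motif is shown in capitals for Nr4a3 and for Atf3, a stress-induced factor lower by -0.62 ± 0.09.
Nr4a3, chr4:48045155-48045304, plus strand: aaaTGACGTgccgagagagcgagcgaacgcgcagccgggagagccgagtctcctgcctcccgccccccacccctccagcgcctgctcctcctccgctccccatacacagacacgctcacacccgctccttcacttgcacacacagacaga
Atf3, chr1:191183334-191183483, minus strand: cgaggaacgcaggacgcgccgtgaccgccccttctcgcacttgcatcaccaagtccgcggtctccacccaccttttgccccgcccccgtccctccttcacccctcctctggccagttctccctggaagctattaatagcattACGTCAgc
These genes moved with several of the reticular-side signals above, such as Ptgs2, Cebpb and Pde4b, and their part in those differences was not tested.

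Markers of other cell types were read in each array because sorted cells can carry other cells or their RNA. Keratinocyte markers were not called in any of 14 cases, though 1 was lower in a fit of only the 6 arrays compared, and their list mean spread from 6.14 to 7.10 over the papillary and from 6.27 to 7.35 over the reticular arrays. Krt5, a keratin of basal keratinocytes, read 10.92, 8.28 and 8.18 and 11.09, 8.60 and 9.21, highest in animal 1 in both populations, and was the keratinocyte marker called in the fit of 6 arrays (-0.51, adjusted p = 0.0474). Melanocyte and Schwann markers were likewise not called in any of 11 cases, and 1 of 5 red blood cell markers was lower, while in the fit of 6 arrays 1 and 2 of them were lower.

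Mural and skeletal muscle markers did move with the populations, while most endothelial markers were not called. Of 12 mural markers 8 were lower and 2 higher, and the list mean was 6.50 to 6.64 in papillary and 7.68 to 8.18 in reticular arrays. Acta2, smooth muscle actin, read 7.27, 7.49 and 7.54 against 8.84, 9.58 and 9.37 (-1.83 ± 0.10, averaged -1.16). The smooth muscle myosin gene Myh11 read 5.89, 5.85 and 5.83 against 8.05, 9.35 and 7.09 (-2.31 ± 0.47, averaged -1.13) and the pericyte gene Rgs5 5.79, 6.09 and 5.85 against 7.93, 9.52 and 6.54, both highest in the reticular array of animal 2 and lowest of the reticular arrays in animal 3. The Rgs5 call, at an adjusted p of 0.0254, was lost without the block (0.0587), with a trend and robust variance (0.101), without animal 1 (0.0692), without the reticular array of animal 2 (0.13) or 1 (0.0739), and without the papillary array of animal 1 (0.0728) or 2 (0.123). Of 17 skeletal muscle markers 10 were lower (6 without animal 2) and 1 higher, with list means of 5.63 to 5.70 against 6.23 to 6.32. Acta1, skeletal actin, read 5.18, 5.03 and 5.15 in papillary and 8.57, 8.20 and 7.71 in reticular arrays, and Tnnc2, a troponin of fast muscle, 6.08, 5.95 and 6.02 against 9.11, 8.72 and 8.31, while the developmental myosin gene Myh3 read 5.89, 5.98 and 5.93 against 5.75, 6.04 and 5.94 and was not called. Of 17 endothelial markers 4 were lower (2 without animal 2, and 7 in the fit of 6 arrays), none was higher and 13 were not called. The 23.5% called was below the 33.7% of all genes. List means were 5.59 to 5.68 against 5.96 to 6.09, and Kdr, a receptor of VEGF, was lower by -1.21 ± 0.17. The part of these markers' cells in the differences of Notch3, Heyl, Jag1, Kcnj8, Tek, Tm4sf1, Fabp4 and Col4a2, which such cells also express, and of the matrix gene Thbs4 was not tested.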

How the data were processed

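The deposited table held log2 expression values of 12 arrays from the authors, for which the submitters' processing notes name affy and its RMA method. RMA corrects the background, normalizes the arrays by quantiles and summarizes the probes of a probe set. Versions and a genome build are not given in the sources used here. Amplification over many cycles can distort differences between transcripts, and 3 arrays a group limit the precision.

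Of 45141 probe sets 104 were controls, and 28898 had 1 gene symbol in the platform annotation. Those with several (551) or no symbol here (15588) were left out. Each of 17097 genes was read from its brightest probe set by mean over the arrays, with no filter on dim genes. All 12 arrays entered 1 limma 3.58.1 fit (R 4.3.3) with terms for population and animal and 6 residual degrees of freedom. The fit was also run on simulated data, in which far fewer genes were changed than were called here. That run therefore does not test the calls at the share found in these data. P-values were adjusted by Benjamini-Hochberg over all genes. The series design gives 3 littermates, each sorted into all populations, and arrays with the same replicate number were taken to come from 1 animal. Deviations from the population means correlated across genes between the 2 arrays of such a pair at 0.276, 0.101 and 0.238. Values between arrays with different replicate numbers are not given, so these do not show that a pair came from 1 animal.

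Genes were named by a rule: sorting genes and the 4 markers, the 20 largest called differences without overlap in each direction, and per list up to 6 called members by size and up to 3 not called by level. Atf3, Cdc6, Mki67, Rrm1, Pdpn, Ppp1r14a, Prdm1 and Thy1 were chosen after their values were seen. The gene lists and members were chosen with earlier results of these data known. Alternatives changed the block, the arrays in the fit, the scaling, the dim filter, the choice of probe set and the variance model, and left out single arrays or animals. Promoter sequences are from RefSeq, build GRCm38.p6.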

Additional observations from a re-analysis of the deposited data

How the results depend on the processing

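Without the animal as a block 2375 genes were higher and 2327 lower, and the pairing changed the call of 2 genes named above, Pdgfra and Rgs5, which lost it without the block. Without 1 array or 1 animal the count of higher genes ran from 2114 to 2661 and that of lower genes from 1895 to 2615, lowest without animal 3 for higher and without animal 2 for lower genes, and the cause was not tested. Of the 5755 calls, 3928 were also called without animal 2 and 4700 without the block. Over the 16 alternatives, no called gene named above changed sign. Among those not called, Col1a1 was at 0.06 and Mmp2 at 0.06 with arrays centred, Col1a1 at -0.02 after repeated quantile normalization, and Col3a1 at 0.18 with all its probe sets averaged. Leaving out arrays or animals moved Bmp4 from -0.16 to 0.27, Cd34 from -0.12 to 0.08, Cdt1 from -0.07 to 0.18, Col23a1 from -0.08 to 0.16, Epcam from -0.47 to 0.22, Col1a1 from -0.02 to 0.02, Mmp2 from -0.07 to 0.04, Myh3 from -0.04 to 0.06, Pcna from -0.00 to 0.10 and Ptprc from -0.05 to 0.09. Other genes given as not called passed under some settings, namely Cdc25c (adjusted p = 0.0344) and Cyp51 (0.0196) with arrays centred, Ccnd1 with probe sets averaged (0.00356), Egr1 (0.017), Fos (0.0135) and Sparc (0.0361) with a trend and robust variance, Igfbp5 without animal 1 (0.0163) and Ptch1 without the reticular array of animal 2 (0.0421). With probe sets averaged 32 called genes named above had differences over 1.5 times smaller, given beside them, and all 32 were still called the same way. Of 174 called genes of the naming rule with several probe sets, 137 had every probe set called the same way and none had one called the opposite way. The signal of dim probe sets and the ceiling of bright ones limit what the arrays can show.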

Other observations

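The base composition of the promoter windows was also read, with no test. In windows of 300 bases the median number of CpG dinucleotides was 16 over all genes, 18 for genes called higher by at least 1 and 13 for genes called lower by at least 1. The median GC content was 58.3% over all genes, 60.7% for those higher by at least 1 and 58.3% for those lower by at least 1. For all called genes regardless of size the median was 21 dinucleotides in those higher and 18 in those lower, and for genes not called it was 14. Windows of several starts of 1 gene are not independent, and the values are given as a description.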
